A study of Mus musculus with 67 samples.

Results

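The genes Gli1, Gli2 and Gli3 encode the GLI transcription factors, and their RNA was followed here in 14 RNA-seq libraries of mouse forelimb buds. The members were the rows of the gene tables with these 3 names, 3 of the 46983 gene IDs listed, and each was found in all 14 tables. The study asked what GLI repression does before and after the onset of Hedgehog (HH) signaling in the limb bud. The pre-HH stage was E9.25 (21 to 23 somites), at which forelimb buds were taken whole, and the post-HH stage was E10.5 (32 to 35 somites), at which only their anterior part was taken. WT buds were of the Swiss Webster stock, with 3 libraries at E9.25 and 4 at E10.5. Gli3-/- buds were homozygous for the Gli3 Xt-J allele kept on Swiss Webster, with 4 libraries at E9.25 and 3 at E10.5. The labels name no transgene or Cre for these groups, and each library was a pool of buds and not an animal. For E10.5 libraries the labels give 2 pairs of anterior buds in a pool and for E9.25 libraries about 4 pairs, while the methods text gives about 4 pairs for either stage.

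GLI proteins are zinc finger factors that carry out the transcriptional response to HH ligands. GLI2 and GLI3 are full-length proteins that can be cut in the absence of ligand to leave a repressor, a role that GLI3 fills most in the limb, while GLI1 has no repressor form, acts as an activator and is itself a target gene of the pathway. Ligand bound to the receptor PTCH1 frees SMO, which stops the cutting of GLI3 at the primary cilium. Xt-J is a deletion of the 3′ part of Gli3, so that RNA of the exons before it can still be made. RNA levels do not show how much of a GLI protein was cut. In buds, fewer cells of a type and less RNA per cell cannot be told apart.

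In the tables Gli1 (ENSMUSG00000025407.6) lies on the minus strand at chr10:127329889-127341589, Gli2 (ENSMUSG00000048402.14) on the minus strand at chr1:118834132-119053619, and Gli3 (ENSMUSG00000021318.15) on the plus strand at chr13:15463235-15730026, all in mm10, the build given in the labels. Gli1 is short, with a span of 11.7 kb, whereas Gli2 and Gli3 span 219 kb and 267 kb. The start of Gli3 is shown because the tables list a second gene, Gm6556, that begins there on the opposite strand. Of the 300 bases around the RefSeq start of Gli3 (GRCm38.p6, plus strand, chr13:15463473-15463772), the capitals mark the 14 bases that the RefSeq start of Gli3 and the listed start of Gm6556 both include. The tables start Gli3 further upstream, so that the genes as listed there share 502 bases, 264 of them in this window.
Gli3 start: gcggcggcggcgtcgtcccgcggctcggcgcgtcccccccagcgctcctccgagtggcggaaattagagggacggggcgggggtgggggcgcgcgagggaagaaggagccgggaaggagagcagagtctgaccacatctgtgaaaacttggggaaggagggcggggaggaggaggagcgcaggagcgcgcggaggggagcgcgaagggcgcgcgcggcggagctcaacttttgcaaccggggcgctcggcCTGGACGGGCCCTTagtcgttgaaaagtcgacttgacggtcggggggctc
The GLI binding motif GACCACCCA was searched on both strands of RefSeq promoter windows of this length, and 0.253% of the 32851 windows held it. It was in none of the windows of Gli2, Gli3, Ptch1 and Hhip. Gli1 had no entry.

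The tables hold TPM, reads per transcript length scaled to a fixed sum per library. Estimated depth was 38.1 to 56.8 M reads, and a TPM of 1 corresponded to 20.7 to 29.3 reads per kilobase. The limb mesenchyme genes Tbx5, Prrx1, Prrx2, Fgf10, Twist1 and Lmx1b were all 6 at a TPM of 1 or more in every library, and the summed TPM of 6 neural tube genes was at most 0.592. The E9.25 WT libraries were spread to both sides, with replicate 2 the lowest. Against the mean of replicates 1 and 3, its median log2 difference was −0.51 over genes spanning 100 kb or more and −0.20 over all expressed genes. Replicate 1, against the mean of replicates 2 and 3, was at 0.38 and 0.19. Replicate 3, against the mean of replicates 1 and 2, was at 0.17 and 0.04. The flank and lateral plate genes Foxf1, Foxf2, Gata4, Gata6, Hand1, Wt1 and Isl1 summed to 21.4 to 54.5 TPM in E9.25 WT and to 73.7 to 207 TPM in E9.25 Gli3-/- libraries, with 4 and 6 of the 7 reaching a TPM of 1 in all libraries of the group and 1 and 0 of them at 0 throughout. At E10.5 their sum was at most 3.40 TPM.

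Some other marker sums also moved with genotype. At E10.5 the 6 mesenchyme genes summed to 732 to 881 TPM in WT and 596 to 659 TPM in Gli3-/- libraries, and the 5 surface ectoderm genes, all at a TPM of 1 or more in every library, to 164 to 191 TPM in WT and 250 to 282 TPM in Gli3-/- libraries. At E9.25 the 4 endothelial genes, at a TPM of 1 or more throughout, summed to 36.5 to 60.4 TPM in WT and 68.2 to 116 TPM in Gli3-/- libraries. The genotypes did not overlap in any of these sums, and the part of cell make-up in the genotype changes given here was not tested.

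Gli3 is the gene targeted by the mutation, and it had the highest TPM of the 3 in every WT library. In E9.25 WT buds Gli3 was at 44.2, 15.8 and 44.6 TPM in replicates 1 to 3, and in E9.25 Gli3-/- buds at 14.3, 20.6, 20.8 and 19.1 TPM in replicates 1 to 4. In E10.5 WT buds it was at 84.3, 73.4, 89.7 and 79.1 TPM, and in E10.5 Gli3-/- buds at 40.9, 40.3 and 38.7 TPM. At E10.5 every Gli3-/- library was below every WT library, whereas at E9.25 WT replicate 2 lay within the range of the Gli3-/- libraries. The order of the groups was E10.5 WT, E10.5 Gli3-/-, E9.25 WT and E9.25 Gli3-/-. The 2 middle groups overlapped, as did the 2 groups of E9.25.

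**Figure D1:**
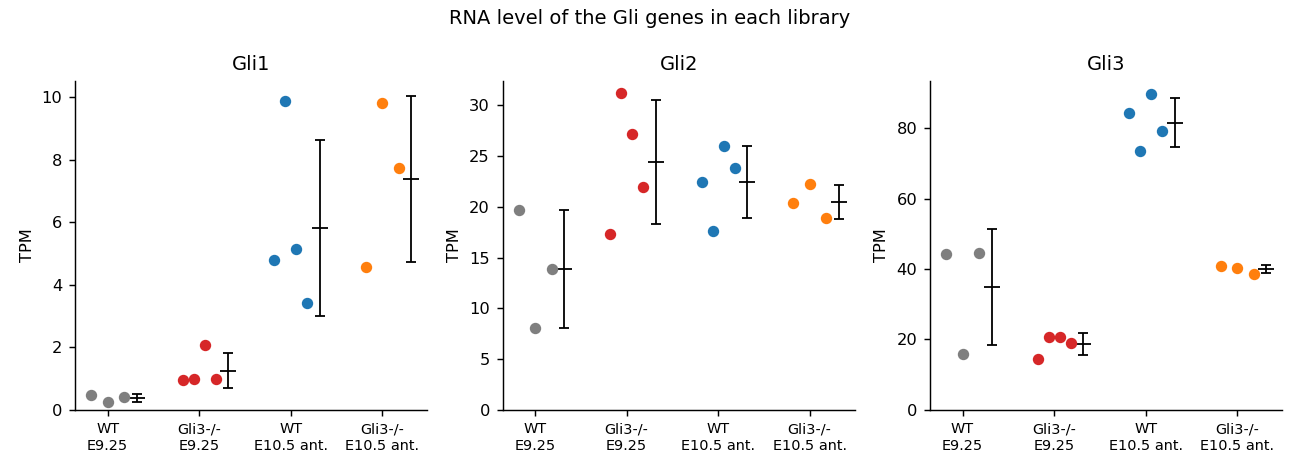
TPM of Gli1, Gli2 and Gli3 (vertical axes, TPM) in each of the 14 libraries, by group. Points are libraries and bars give the mean and SD. Gli3 separates the genotypes at E10.5, with 38.7 to 40.9 TPM in Gli3-/- and 73.4 to 89.7 TPM in WT, and Gli1 is at most at 2.09 TPM in all E9.25 libraries.

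limma was run on log2(TPM + 1) values, and its p-values are given after Benjamini-Hochberg adjustment over every gene tested, with 0.05 as the threshold. Such log2 changes understate those of genes with low TPM. At E10.5 Gli3 fell in Gli3-/- buds by 1.01 on the log2 scale (standard error 0.08, limma adjusted p = 0.000335, 3 against 4 libraries). In this comparison 4.77% of all genes tested passed and 11.5% were lower in Gli3-/- without overlap of the groups. The mean TPM in Gli3-/- buds was 49.0% of WT. When all 14 libraries shared the spread, which takes in the wide E9.25 WT group, Gli3 did not pass (limma adjusted p = 0.0609), the highest of 18 alternatives, of which the lowest gave 3.26e-05. At E9.25 the log2 change of Gli3 was −0.74 (standard error 0.32, 95% interval −1.46 to −0.02) and did not pass (limma adjusted p = 0.223, 0.136% of genes tested passed). With WT replicate 2 left out it passed at −1.22 (limma adjusted p = 0.0415). Over the other 6 libraries left out in turn it ranged from −0.79 to −0.50 without passing.

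A second column of the tables separated the genotypes in every library. The tables give for each gene the coverage, which is the mean read depth per base, and FPKM, the reads per length and per library size. For one library their ratio cannot exceed a fixed value, and 35.4 to 37.0% of genes were at that value within 0.5%. The ratio as a share of that value is called the length share here. It was read as the length behind the FPKM relative to the length behind the coverage, though the tables do not define either length. Gli1 had a length share of 100% in all 14 libraries, and Gli2 one of 24.4 to 25.2% in all 14.

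The length share of Gli3 depended on genotype. It was 33.9, 33.8 and 33.8% in E9.25 WT replicates 1 to 3 and 34.3, 34.2, 34.2 and 33.9% in E10.5 WT replicates 1 to 4. In Gli3-/- buds it was 12.9, 12.4, 13.001 and 12.2% at E9.25 and 13.9, 13.4 and 13.8% at E10.5. The 7 WT libraries and the 7 Gli3-/- libraries did not overlap at either stage, and E9.25 WT replicate 2, at 33.8%, was with the other WT libraries. The length share of Gli3 sorted with the labelled genotype in all 14 libraries.

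With limma on the log2 length share, for genes that reached a TPM of 1 in every library compared and had a mean share under 98%, Gli3 fell at E9.25 by 1.42 (standard error 0.03, limma adjusted p = 3.37e-05) and by 1.32 at E10.5 (standard error 0.01, limma adjusted p = 1.80e-06). It had the smallest p of the 8010 genes tested at E9.25, of which 4 passed (0.0499%), and of the 8594 tested at E10.5, of which 2 passed (0.0233%). Gli3 was the only gene, 1 at each stage, that passed and changed by more than 1 on the log2 scale. The exact permutation test of the percent values gave p = 0.0286 at each stage, the smallest that 35 arrangements of 7 libraries can give. Gli2 did not pass at either stage, with log2 changes of −0.02 (95% interval −0.05 to 0.00) and 0.01 (95% interval −0.02 to 0.03).

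The coverage itself was therefore brought to the TPM scale, so that a gene with a length share of 100% has the same value on both. By coverage Gli3 was at 15.0, 5.33 and 15.1 in E9.25 WT and at 1.85, 2.54, 2.70 and 2.33 in E9.25 Gli3-/- libraries. It was at 28.9, 25.1, 30.7 and 26.8 in E10.5 WT and at 5.70, 5.41 and 5.34 in E10.5 Gli3-/- libraries. By this value the genotypes did not overlap at either stage, and E9.25 WT replicate 2 was above all 4 Gli3-/- libraries of its stage.

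The mean Gli3 coverage in Gli3-/- buds was 20.0 and 19.7% of WT at the early and late stage, where the mean TPM was 53.6 and 49.0% of WT. On the log2 scale the coverage fell at E10.5 by 2.15 (standard error 0.08, limma adjusted p = 3.26e-05, 4.41% of genes tested passed). At E9.25 the log2 change was −1.82 (95% interval −2.52 to −1.12) and did not pass (limma adjusted p = 0.0842, 0.101% of genes tested passed), and with WT replicate 2 left out it passed at −2.26 (limma adjusted p = 0.00162). How the reads of Gli3 were spread over its exons was not analysed here, and the part of the Xt-J deletion in the length share was not tested.

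**Figure D2:**
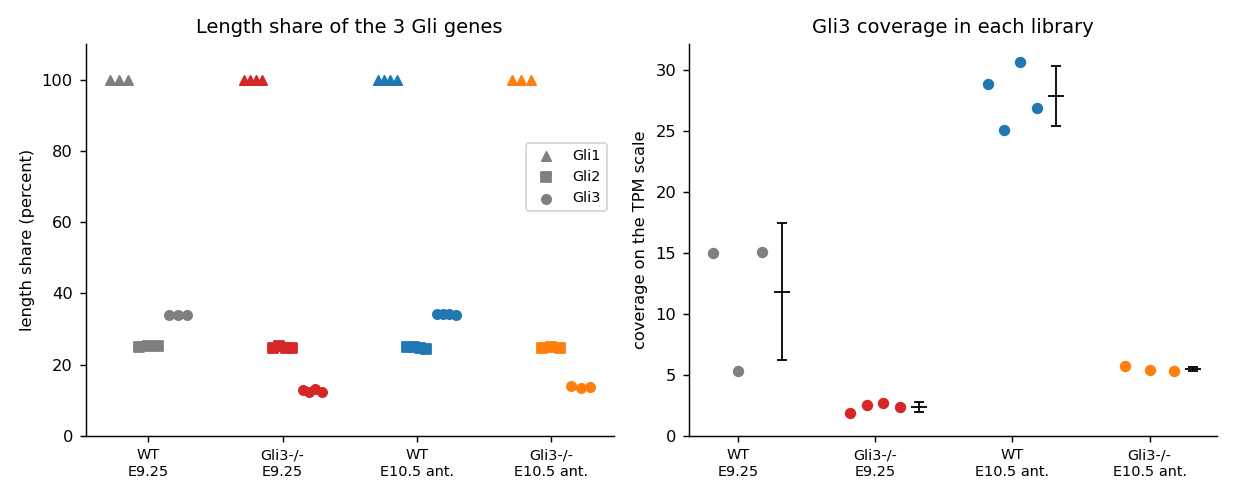
Left, length share (percent) of Gli1, Gli2 and Gli3 in each library. Right, Gli3 coverage on the TPM scale, with the mean and SD of each group. The Gli3 length share is 33.8 to 34.3% in the 7 WT libraries and 12.2 to 13.9% in the 7 Gli3-/- libraries, while that of Gli2 is 24.4 to 25.2% in both genotypes.

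Gm6556, the gene listed across the start of Gli3 on the other strand, did not pass in either genotype comparison. It was at 1.38 to 1.502 TPM in E9.25 WT and 0.497 to 1.53 TPM in E9.25 Gli3-/- libraries, and at 1.74 to 2.69 TPM in E10.5 WT and 1.97 to 2.71 TPM in E10.5 Gli3-/- libraries. The genotypes overlapped at both stages, with a log2 change at E10.5 of 0.01 (limma adjusted p = 0.972). Whether reads were assigned by strand is not given in the sources used here, so reads of Gli3 and Gm6556 in the 502 bases that the tables give to both cannot be told apart. The next expressed neighbors of Gli3, Gm26645 and Mplkip, did not pass with genotype either, with log2 changes at E10.5 of −0.09 and −0.10. At E9.25 Mplkip was at 21.9 to 23.5 TPM in WT and 15.5 to 19.3 TPM in Gli3-/- libraries. Its log2 change of −0.36 did not pass (limma adjusted p = 0.219). Of 18 alternatives it passed in 1, the model of all 14 libraries (limma adjusted p = 0.0495), where 1185 of 14760 genes passed. Inhba, the inhibin beta gene 282 kb from Gli3, was under a TPM of 1 in all libraries.

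With stage, Gli3 RNA rose in both genotypes. From E9.25 whole buds to E10.5 anterior buds the log2 change was 1.34 in WT (standard error 0.32, limma adjusted p = 0.00981) and 1.07 in Gli3-/- (standard error 0.14, limma adjusted p = 0.000433), and no library overlapped in either. In these comparisons 48.7% and 25% of all genes tested passed, and 41.5% and 22.3% of genes were higher at E10.5 without overlap. The median tested gene was itself 0.34 higher at E10.5 in WT and 0.06 higher in Gli3-/-, so that Gli3 was 1.00 and 1.01 above it. The difference of the genotype effects between the stages was −0.27 (95% interval −1.07 to 0.53) and did not pass (limma adjusted p = 0.675, 2.13% of genes tested passed). Its sign turned with size factors, sample weights or without E9.25 WT replicate 2. Stage and the part of the bud dissected cannot be told apart in these comparisons.

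Gli2, the second member that can be cut to a repressor, had similar levels in 3 of the 4 groups. It was at 19.7, 8.03 and 13.9 TPM in E9.25 WT and at 17.3, 31.2, 27.2 and 21.9 TPM in E9.25 Gli3-/- buds. It was at 22.5, 17.6, 26.002 and 23.8 TPM in E10.5 WT and at 20.4, 22.2 and 18.9 TPM in E10.5 Gli3-/- buds. The E9.25 WT libraries were the lowest group and were led down by replicate 2, but replicate 1 was above the lowest library of each other group, so that every pair of groups compared overlapped.

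No genotype comparison of Gli2 passed. At E10.5 the log2 change with loss of Gli3 was −0.12 (95% interval −0.40 to 0.17, limma adjusted p = 0.676). At E9.25 it was 0.82 (standard error 0.29, 95% interval 0.19 to 1.46, limma adjusted p = 0.217), with adjusted p from 0.0502 to 0.478 over 18 alternatives. The median tested gene was 0.23 higher in E9.25 Gli3-/- buds and the median gene with a span of at least 100 kb, of which there were 1555, was 0.41 higher. Gli2 was 0.60 above the first and 0.42 above the second. The genotype effects at the 2 stages differed by −0.94 (95% interval −1.67 to −0.21), which did not pass (limma adjusted p = 0.162). It passed without E9.25 WT replicate 1, at −1.22 (limma adjusted p = 0.0333).

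With stage, Gli2 rose in WT buds by 0.73 on the log2 scale (standard error 0.26, limma adjusted p = 0.0462), close to the threshold. It kept this call in 5 of 17 alternatives only. With median-of-ratios size factors the change was 0.39 (limma adjusted p = 0.147) and with quantile normalization it was 0.31 (limma adjusted p = 0.205). The long genes of WT buds were higher at E10.5 by a median of 0.63, and Gli2 was 0.10 above them. The call was also lost without E9.25 WT replicate 2, at 0.41 (limma adjusted p = 0.0920), without E9.25 WT replicate 3, at 0.77 (limma adjusted p = 0.0817), and without E10.5 WT replicate 1, 3 or 4, at 0.72, 0.66 and 0.70 (limma adjusted p = 0.0906, 0.105 and 0.103). In Gli3-/- buds the log2 change with stage was −0.21 (95% interval −0.62 to 0.20, limma adjusted p = 0.440).

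Gli1, the activator and target gene, had the lowest TPM of the 3 in all 14 libraries. It was at 0.474, 0.237 and 0.407 TPM in E9.25 WT and at 0.945, 0.983, 2.09 and 0.971 TPM in E9.25 Gli3-/- buds. At E10.5 it was at 4.80, 9.87, 5.15 and 3.41 TPM in WT and at 4.56, 9.82 and 7.73 TPM in Gli3-/- anterior buds. Every E10.5 library was above every E9.25 library, and at E9.25 every Gli3-/- library was above every WT library. At E10.5 the genotypes overlapped over nearly their whole range.

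The rise of Gli1 with stage passed in both genotypes, beside 48.7% and 25% of all genes tested in WT and Gli3-/- buds. Of all genes, 41.5% and 22.3% were higher at E10.5 without overlap. The rise of Gli1 was 2.23 on the log2 scale in WT (standard error 0.28, limma adjusted p = 0.000640) and 1.87 in Gli3-/- buds (standard error 0.25, limma adjusted p = 0.000486), and the ratios of the mean TPM were 15.6 and 5.91. Gli1 was 1.89 and 1.81 above the median tested gene. With a pseudocount of 0.1 in place of 1 the log2 changes were 3.57 and 2.48, because the E9.25 levels are low. The difference of the genotype effects between the stages was −0.36 (95% interval −1.23 to 0.51, limma adjusted p = 0.601).

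At E9.25 Gli1 rested on few reads, 5.77 to 13.8 per kilobase in WT and 20.6 to 60.6 per kilobase in Gli3-/- libraries. It reached a TPM of 1 in 1 of the 7 libraries and so was below the filter for limma. The WT mean of log2(TPM + 1) was 0.45 ± 0.13 (SD, n = 3). That of Gli3-/- buds was 1.14 ± 0.33 (SD, n = 4), a difference of 0.68 with an exact permutation p of 0.0286 (two-sided), the smallest possible. Among the genes that passed the filter, 9.97% were higher in Gli3-/- without overlap in this comparison. In limma without a filter the difference did not pass after adjustment over all genes (limma adjusted p = 0.374). The summed flank and lateral plate genes were likewise higher in every E9.25 Gli3-/- library, and their part in the level of Gli1 was not tested.

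At E10.5 the log2 change of Gli1 with loss of Gli3 was 0.33 (standard error 0.31, 95% interval −0.37 to 1.02) and did not pass (limma adjusted p = 0.618, between 0.253 and 0.900 over 18 alternatives). WT replicate 2, with the highest Gli1 of its group at 9.87 TPM, also had the highest sum of the posterior limb genes Shh, Hoxd13, Hoxd12 and Hand2, 49.6 TPM against 23.8 to 29.4 TPM in the other WT libraries. In Gli3-/- the sum was 162, 304 and 251 TPM in replicates 1 to 3, in the same order as Gli1. In E10.5 WT 2 of these 4 genes were at a TPM of at least 1 in all libraries and 1, Shh, was at 0 in all. The study reported Hand2 and Hoxd13 as higher in anterior E10.5 Gli3-/- limbs, so that in this genotype their RNA need not mark posterior cells. The part of posterior cells in the Gli1 values was not tested.

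**Figure D3:**
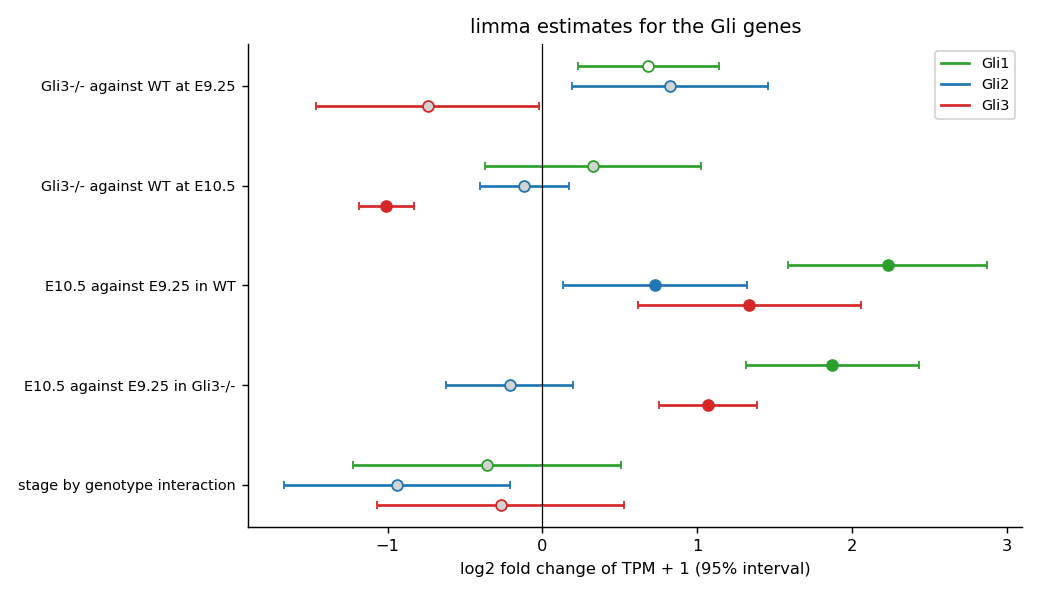
limma log2 fold changes (horizontal axis, on the log2(TPM + 1) scale) of Gli1, Gli2 and Gli3 in the 5 comparisons, with 95% intervals. Filled points passed at an adjusted p of 0.05, grey points did not, and the white point of Gli1 at E9.25 comes from the fit without a filter, which it did not pass. With genotype Gli3 passed at E10.5, at −1.01, and with stage Gli1 and Gli3 passed in both genotypes.

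The make-up of the Gli RNA differed between genotypes and stages and is given as a description. Gli3, the gene targeted by the mutation, is part of the summed RNA, so that its fall by itself raises the shares of Gli1 and Gli2. Of the summed TPM of the 3 genes in WT buds, Gli3 gave 70.0 ± 5.20% (SD, n = 3) at E9.25 and 74.2 ± 1.15% (SD, n = 4) at E10.5. In Gli3-/- buds it gave 42.5 ± 2.84% (SD, n = 4) at E9.25 and 59.0 ± 3.20% (SD, n = 3) at E10.5. The share of Gli1 was 0.804, 2.81, 5.39 and 10.8% in E9.25 WT, E9.25 Gli3-/-, E10.5 WT and E10.5 Gli3-/- buds, and that of Gli2 was 29.2, 54.7, 20.4 and 30.2%. By coverage on the TPM scale the shares were different. This value is the TPM times the length share, which is lower for Gli2 and Gli3 than for Gli1. Shares and ranks between the genes on this scale therefore rest on unlike length shares and are given as a description. Gli3 gave 74.4 ± 4.68% (SD, n = 3) and 71.1 ± 4.94% (SD, n = 4) in WT at E9.25 and E10.5, lower rather than higher at the later stage, and 24.7 ± 2.11% (SD, n = 4) and 31.1 ± 5.70% (SD, n = 3) in Gli3-/- buds. Gli1 by coverage gave 2.53, 12.8, 14.7 and 40.2% in the order above, and it was above Gli3 in 2 libraries. The summed TPM was 24.0 to 64.3 in E9.25 WT, 32.6 to 52.8 in E9.25 Gli3-/-, 100.9 to 120.8 in E10.5 WT and 65.3 to 72.4 in E10.5 Gli3-/- libraries. By TPM Gli3 was above Gli2 in 10 libraries, and the 4 where Gli2 was above Gli3 were the E9.25 Gli3-/- libraries.

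The ratio of Gli2 to Gli3 within a library does not depend on how the library was scaled. Its log2 was −1.17, −0.98 and −1.69 in E9.25 WT and 0.28, 0.60, 0.39 and 0.20 in E9.25 Gli3-/- libraries. In E10.5 WT it was −1.91, −2.06, −1.79 and −1.73, and in E10.5 Gli3-/- it was −1.005, −0.86 and −1.03. The groups did not overlap in any of the 4 comparisons. E9.25 WT replicate 2, at −0.98, was the highest of the WT libraries. It was below every E9.25 Gli3-/- library but within the range of the E10.5 Gli3-/- libraries.

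With loss of Gli3 the log2 ratio of Gli2 to Gli3 was higher by 1.64 at E9.25 and by 0.91 at E10.5. From E9.25 to E10.5 it was lower, by −0.59 in WT and −1.33 in Gli3-/- buds. The exact permutation p was 0.0286 in each comparison (two-sided, 0.0286 after adjustment over the 4), the smallest possible. Gli3, the lower term of the ratio, is the gene targeted by the mutation. The 2 genotype differences are therefore given as a description, and their p is no separate support for a change of the family. The WT groups came close, at −1.69 and −1.73 in their nearest libraries. On the coverage scale, where the length shares of Gli2 and Gli3 also enter, the genotype differences were 3.04 and 2.23. There Gli2 was above Gli3 in 5 libraries. The difference between the 2 genotype effects was not tested.

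**Figure D4:**
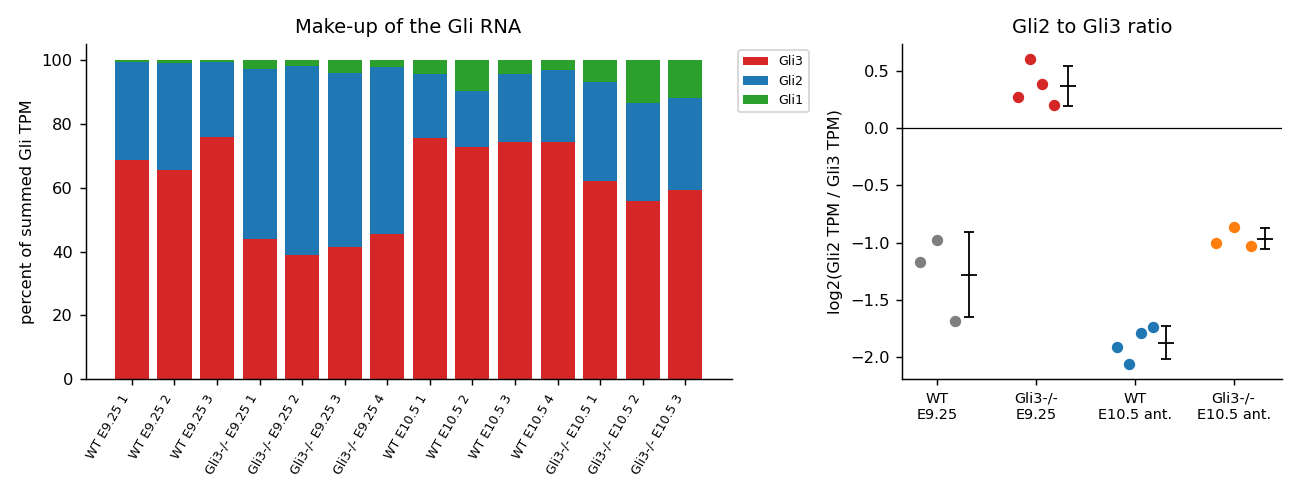
Left, percent of the summed Gli TPM given by Gli3, Gli2 and Gli1 in each library. Right, log2 of the ratio of Gli2 TPM to Gli3 TPM, with points for libraries and bars for the mean and SD. The 4 E9.25 Gli3-/- libraries are the ones above 0, at 0.20 to 0.60, and the E10.5 WT libraries are lowest, at −2.06 to −1.73.

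Other genes of the pathway were set beside the members. Ptch1, the receptor gene and an HH target, rose with loss of Gli3 at both stages, from 2.48 to 8.08 TPM in E9.25 WT to 21.4 to 38.5 TPM in Gli3-/- libraries and from 9.54 to 11.7 TPM in E10.5 WT to 28.7 to 38.3 TPM. The log2 changes were 2.28 at E9.25 (limma adjusted p = 0.0309) and 1.58 at E10.5 (limma adjusted p = 0.000287). By fluorescent in situ hybridization the study did not detect Ptch1 in E9.25 limb buds of either genotype. The summed flank and lateral plate genes were higher in every E9.25 Gli3-/- library, and their part in the E9.25 level of Ptch1 was not tested. The E10.5 call held in 18 of 18 alternatives. The E9.25 call held in 12 of 18 (limma adjusted p from 0.000669 to 0.306). It was lost with a pseudocount of 0.1, with no filter, and without E9.25 WT replicate 3 (log2 change 2.38, limma adjusted p = 0.134) or E9.25 Gli3-/- replicate 1, 2 or 3 (log2 changes 2.41, 2.14 and 2.22, limma adjusted p = 0.0923, 0.0750 and 0.152).

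Hhip, a ligand-binding inhibitor and HH target, was at 0 to 0.286 TPM in E9.25 WT and 0.707 to 1.61 TPM in E9.25 Gli3-/- libraries, under the filter of that comparison. The part of flank and lateral plate cells in these E9.25 levels was not tested either. At E10.5 Hhip was at 0.485 to 1.57 TPM in WT and 0.828 to 1.46 TPM in Gli3-/- and did not pass (limma adjusted p = 0.519). Of the HH target genes shown, Gli1 and Hhip thus overlapped between genotypes at E10.5 where Ptch1 did not.

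**Figure D5:**
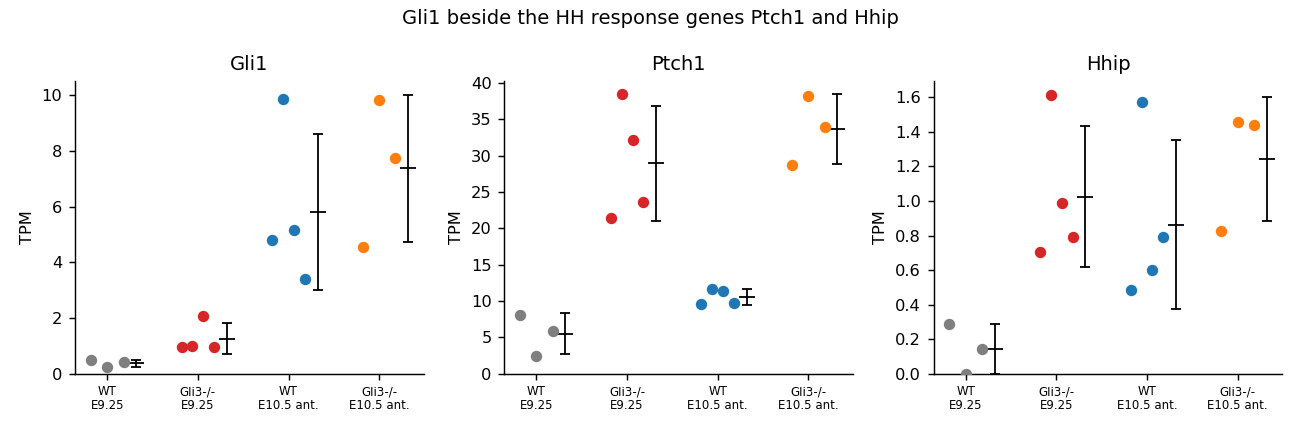
TPM of Gli1, Ptch1 and Hhip in each library, by group, with the mean and SD. At E10.5 the genotypes overlap for Gli1 and Hhip, while Ptch1 is at 28.7 to 38.3 TPM in Gli3-/- against 9.54 to 11.7 TPM in WT.

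Of the 8 genes for HH ligands and their release, 5 were tested at E10.5 and 1 passed with genotype, beside 4.77% of all genes tested. This was Shh, the ligand gene of the posterior limb bud, listed at 0 in the 4 anterior E10.5 WT libraries and at 1.17, 7.47 and 8.67 TPM in E10.5 Gli3-/- libraries (limma adjusted p = 0.0134). The call was lost without the filter on low TPM and with the replicate numbers as a block (highest limma adjusted p = 0.0853). At E9.25 Shh was at 0 in all Gli3-/- libraries and at most at 0.0603 TPM in WT, and 0 of the 4 ligand and release genes tested passed in limma, with 2 at an unadjusted p under 0.05, beside 0.136% of all genes that passed and 22% at an unadjusted p under 0.05.

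Of 7 receptor and co-receptor genes, 6 were tested in each genotype comparison. Ptch1 was the 1 that passed at E9.25, where 0.108% of all genes tested rose, while at E10.5 Ptch1 rose and the co-receptor genes Cdon and Gas1 fell, beside 1.84% of all genes tested that rose and 2.93% that fell. Cdon was at 42.3 to 59.8 TPM in E10.5 WT and 17.8 to 19.2 TPM in E10.5 Gli3-/- libraries, a log2 change of −1.42 (limma adjusted p = 0.000335). Gas1 fell by 0.63 (limma adjusted p = 0.00521), and its call was lost with the title numbers as a replicate block (highest limma adjusted p = 0.104). The median log2 change of the receptor list was 0.43 at E9.25 and −0.23 at E10.5, beside 0.23 and −0.02 over all genes tested.

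The 19 genes for the processing and degradation of GLI proteins were all tested and 0 of the 19 passed with genotype in limma at either stage, with 10 at an unadjusted p under 0.05 at E9.25 and 2 at E10.5. Over all genes tested 0.136% and 4.77% passed, and 22% and 19.6% were at an unadjusted p under 0.05. Sufu, which holds GLI proteins in the cytoplasm, was at 18.4 to 27.1 TPM in E9.25 WT and 26.7 to 46.5 TPM in E9.25 Gli3-/- libraries, with a log2 change of 0.66 (limma adjusted p = 0.217). At E10.5 its log2 change was 0.11 (limma adjusted p = 0.609). Kif7, a ciliary kinesin of the pathway, had log2 changes of 0.53 and −0.10 (limma adjusted p = 0.220 and 0.666), and Smo, the transducer, had 0.36 and −0.03 (limma adjusted p = 0.240 and 0.904). The list's median log2 change was 0.43 at E9.25, beside 0.23 over all genes tested, and 0.02 at E10.5, beside −0.02.

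Of 7 zinc finger genes related to the GLI family, 5 were tested at E10.5 and 3 passed with genotype, 1 higher and 2 lower, beside 1.84% of all genes tested that rose and 2.93% that fell. Glis3 fell by 1.13 (limma adjusted p = 0.00467) and Glis1 fell by 0.93 (limma adjusted p = 0.0112), while Zic5 rose by 0.60 (limma adjusted p = 0.00808). Glis1 lost its call without E10.5 Gli3-/- replicate 3 (log2 change −0.89, limma adjusted p = 0.0545) and with the title or the table numbers as a replicate block (limma adjusted p = 0.0897 and 0.0721). Zic5 lost its call with the title numbers as a block (limma adjusted p = 0.107) and in the model of all 14 libraries (limma adjusted p = 0.195), and Glis3 with the title numbers as a block (highest limma adjusted p = 0.0793). At E9.25, 0 of the 4 tested passed in limma, with 3 at an unadjusted p under 0.05, beside 22% of all genes tested.

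With stage in WT buds, 3 of 4 ligand and release genes, 5 of 5 receptor and co-receptor genes, 12 of 19 processing genes and 5 of 5 related zinc finger genes tested rose, and 0 fell, beside 38.1% of all genes that rose and 10.6% that fell. Their median log2 changes were 0.77, 1.08, 0.44 and 1.05, beside 0.34 over all genes tested. These counts depended on the scaling. With median-of-ratios size factors 2 of 4, 3 of 5, 3 of 19 and 4 of 5 rose and 1 processing gene fell, beside 19.9% of all genes that rose and 21.6% that fell, and the medians were 0.44, 0.71, 0.10 and 0.89 beside 0.02. With quantile normalization 1 of 4, 3 of 5, 9 of 19 and 3 of 5 rose and 0 fell, beside 18.4% of all genes that rose and 19.2% that fell. Smo kept its stage call in 6 of 17 alternatives (log2 change from −0.02 to 0.46) and Ptch1 in 9 of 17 (0.45 to 1.24). The receptor genes that changed most were the co-receptor genes Boc, at 2.07 (limma adjusted p = 0.000124), and Cdon, at 1.99 (limma adjusted p = 0.000640). Of the processing genes Stk36 changed most, at 1.65 (limma adjusted p = 0.000350). In Gli3-/- buds 3 of 5, 1 of 7, 0 of 19 and 2 of 4 rose and 1 receptor gene, Lrp2, fell, by 1.60 (limma adjusted p = 0.00175), beside 15.8% and 9.17% of all genes. Medians there were 0.74, 0.24, 0.10 and 1.74, beside 0.06 over all genes tested. There both scalings moved the number that rose in a list by at most 2. With size factors 1 ligand and release, 1 receptor and 1 processing gene fell, beside 14.9% of all genes. With quantile normalization 1 ligand and release, 1 receptor and 1 zinc finger gene fell, beside 13.9% of all genes. Zic2 rose by 1.59 in WT (limma adjusted p = 0.000390) and by 3.79 in Gli3-/- buds (limma adjusted p = 1.22e-05).

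The genes with the most similar profiles to each member were found by the root mean square difference of centred log2(TPM + 1) values over the 14 libraries, among 16367 genes, and are given as a description. For Gli3, whose own profile had an SD of 0.86, they were Gm13584, Emx2, Rnf150, Hdhd3 and Tle2, at differences of 0.27 to 0.34. For Gli1, with an SD of 1.08, they were Zcchc18, Nr6a1os, Arhgap24, Rspo3 and Pear1, at 0.36 to 0.39. Neither Gli1 nor Gli3 had a gene within 0.2. For Gli2, with an SD of 0.43, Mlxip, Prpf8, Ptpn23, Atxn2 and Supt6 were nearest, at 0.07 to 0.10, and 540 genes lay within 0.2. The libraries are shared by all genes, so that the low level of E9.25 WT replicate 2 enters each of these profiles.

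Around Gli1, Arhgap9 overlaps its 3′ end on the other strand, and was at 0.540 to 1.10 TPM at E9.25 and 2.14 to 3.37 TPM at E10.5. Like Gli1 it rose with stage, by 0.89 in WT (limma adjusted p = 0.00377) and 1.28 in Gli3-/- buds (limma adjusted p = 0.000348), and did not pass with genotype. Reads where the 2 genes overlap cannot be told apart without strand. Mars and R3hdm2, the next expressed neighbors, were at 61.0 to 112 TPM and 15.5 to 48.3 TPM over all libraries. For Gli2 the next expressed genes were Clasp1 and Ralb, of which Clasp1, at 0.71 in E9.25 Gli3-/- buds, had a log2 change near the 0.82 of Gli2 and also did not pass (limma adjusted p = 0.217). Mir6346 lies within Gli2 and reached a TPM of 1 in 5 libraries. The inhibin beta genes Inhbe and Inhbc beside Gli1 and Inhbb beside Gli2 were under a TPM of 1 in all 14 libraries.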

How the data were processed

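RNA was extracted with TRIzol and sequenced by the authors as single reads, which they aligned with HISAT2. The labels give mm10, and the tool that made the tables is not given in the sources used here. The authors deposited, for each library, TPM values, FPKM values and the coverage of each gene ID. The deposited TPM values were used for every comparison, and the deposited FPKM and coverage columns only for the length share and for the coverage scale. Counts were not analysed here, so no count test was run. The study's own fit used counts. Depth was estimated for reads of 100 bases, by dividing coverage by FPKM and taking the value shared by the largest number of genes.

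In R 4.3.3, log2(TPM + 1) was fitted by limma 3.58.1, whose eBayes step used the trend option. Genes entered a fit if 3 or more of its libraries reached a TPM of 1. The interaction used all 14 libraries. Exact permutation tests and summaries were made with numpy 2.4.6 and pandas 2.3.3 under Python 3.11.15, and plots with matplotlib 3.10.9. The fits were tested on simulated data before use. Replicate p-values measure the spread between pools.

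Genes named were the 3 members, Ptch1, Hhip, Shh, Smo, Sufu and Kif7, the 5 genes of nearest profile for each member, up to 4 genes of a list that passed in a comparison, largest change first, and the neighbors of the members. Members, gene lists and tests were chosen with earlier results of these data known. The alternatives changed the scaling (median-of-ratios size factors, quantile normalization), the filter (none, or a TPM of 5), the pseudocount (0.1), the model (no trend, a replicate block, all 14 libraries together, sample quality weights) or the libraries, of which each was left out once. The coverage scale, the length share, the exact test of Gli1 at E9.25, the genes of long span and the posterior sums set beside Gli1 were chosen after the data had been seen. Promoter windows were from RefSeq (GRCm38.p6). Protein sequences were not used here, and 2 genes of the lists are not reported here and were left out of their counts and medians.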

Additional observations from a re-analysis of the deposited data

Results flagged for a closer look

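Gli1 in E9.25 Gli3-/- replicate 3, at 2.09 TPM, stood apart from the other 3 libraries of its group, at 0.945 to 0.983 TPM. Its gap to the nearest library was 0.967 of the range of the group. Of 22 groups of 4 libraries examined for the TPM and length share of the members, the Gli2 to Gli3 ratio and 6 pathway genes, this was the 1 with such a library, and chance gives about 1 in 20. Without it the difference of Gli1 between the genotypes at E9.25 was 0.52 on the log2(TPM + 1) scale.

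None of the 3 members differed in its genotype effect between the stages by a test that passed with all libraries in, while Gli2 passed without E9.25 WT replicate 1 (−1.22, limma adjusted p = 0.0333). For 7 other genes the effect of genotype at E10.5 minus that at E9.25 passed in the model of all 14 libraries, beside 2.13% of all genes tested. They were 1 of 5 ligand and release genes, 1 of 7 receptor and co-receptor genes and 1 of 19 processing genes tested. The rest were related zinc finger genes, of which 5 were tested, 2 passing with a positive value and 2 with a negative one. The difference was −1.63 for Cdon (limma adjusted p = 0.0173), −1.32 for Glis1 (limma adjusted p = 0.0177), −1.20 for Glis3 (limma adjusted p = 0.0242) and −1.30 for Stk36 (limma adjusted p = 0.0283). For Zic2 it was 2.20 (limma adjusted p = 0.00777) and for Zic5 1.84 (limma adjusted p = 0.00433). Most of these 2 values came from E9.25, where Zic2 was lower in Gli3-/- by 1.75 and Zic5 by 1.24. Those E9.25 changes did not pass on their own (limma adjusted p = 0.0949 and 0.143). At E10.5 the log2 changes were 0.45 for Zic2 and 0.60 for Zic5. The fitted value for Shh was 2.52 (limma adjusted p = 0.0179), which depends on the pseudocount because Shh is listed at 0 in E10.5 WT. Over its alternatives the call held in 20 of 23 for Cdon, 22 of 23 for Zic2, 23 of 23 for Zic5, 16 of 21 for Glis1, 12 of 21 for Glis3, 16 of 19 for Shh and 11 of 23 for Stk36. The call of Cdon was lost without E10.5 Gli3-/- replicate 3 (−1.60, limma adjusted p = 0.0567). That of Glis1 was lost at −1.29 to −1.27 without E9.25 WT replicate 3 or E10.5 Gli3-/- replicate 2 or 3. That of Glis3 was lost at −1.248 to −1.001 without E9.25 WT replicate 2, E9.25 Gli3-/- replicate 3, E10.5 WT replicate 3 or 4 or any E10.5 Gli3-/- replicate. That of Stk36 was lost at −1.30 to −1.12 without E9.25 WT replicate 2 or 3, E9.25 Gli3-/- replicate 3, E10.5 WT replicate 1, 3 or 4 or E10.5 Gli3-/- replicate 1 or 3.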

How the results depend on the processing

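For Gli1, Gli2, Gli3 and the Gli2 to Gli3 ratio, 249 values tested under an alternative kept their direction and their side of the threshold. A further 39, of the ratio and of Gli1 at E9.25 with a library left out or within pairs, had no test of their own and kept their direction. Another 14 lost their call, 3 gained one and 3 turned sign. Gli3 at E10.5 lost its call in 1 model of all 14 libraries (−1.01). Gli1 at E9.25 is counted among the 14 for its exact permutation p of 0.0286, which is unadjusted and the smallest possible. It did not pass in limma without a filter (0.68). Gli2 with stage in WT lost its call with a pseudocount of 0.1 (0.77), no filter or eBayes without a trend (0.73 in both), size factors (0.39), quantile normalization (0.31), the title numbers as a block (0.70, limma adjusted p = 0.0503) and the coverage scale (0.59). Gli3 at E9.25 gained a call on the coverage scale without WT replicate 2 (−2.26). The stage difference of the genotype effect of Gli3 turned to 0.0133 with size factors and to 0.00330 with sample weights. Of the other genes, Smo with stage in WT turned to −0.0196 with size factors and Gm26645 to −0.0358 with quantile normalization.

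With each library left out in turn, the log2 change with loss of Gli3 at E9.25 ranged from 0.52 to 0.74 for Gli1, from 0.50 to 1.10 for Gli2 and from −1.22 to −0.50 for Gli3. At E10.5 it ranged from 0.11 to 0.60, from −0.22 to −0.04 and from −1.06 to −0.96. With stage the ranges were 1.98 to 2.41, 0.41 to 1.01 and 0.86 to 1.58 in WT, and 1.66 to 2.14, −0.36 to −0.09 and 0.95 to 1.12 in Gli3-/- buds. For the interaction they were −0.57 to −0.09, −1.22 to −0.62 and −0.51 to 0.21. The Gli2 to Gli3 ratio differed by 1.44 to 1.79 and 0.84 to 0.95 with genotype and by −0.80 to −0.44 and −1.39 to −1.25 with stage, where 6 libraries are too few for the exact test to pass.

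The number of genes called at E9.25 was 20, of 3247 at an unadjusted p under 0.05. It was 0 without a filter (limma, 3542 at an unadjusted p under 0.05), 53 with sample weights, 66 with the replicate block, 1185 in 1 model of all 14 libraries, 10 on the coverage scale without WT replicate 2 and 2 to 196 with a library left out. At E10.5 it was 747, and 391 without a filter, 1356 with weights, 164 with the block of title numbers, 406 in 1 model and 301 to 680 with a library left out. With stage in WT it was 7520, and 4699 with the block and 5139 to 8305 with a library left out. In Gli3-/- it was 3853, and 6520 with weights and 2129 to 4326. For the interaction it was 348, and 830 with weights, 42 with the block and 150 to 1433.
Size factors moved the share of higher calls from 5885 of 7520 to 3072 of 6405 with stage in WT, from 16 of 20 to 17 of 27 with genotype at E9.25, and from 78 of 348 to 136 of 360 for the interaction. With stage in Gli3-/- buds they moved it from 2437 of 3853 to 2356 of 4654.

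By the titles, same-numbered libraries had correlations of their deviations across genes of −0.18 to −0.15 at E9.25 and −0.16 to 0.12 at E10.5. By the numbers the deposited tables carry, all 3 pairs at E10.5 were positive (0.05 to 0.29, mean 0.17, against −0.06 for other pairs), but not each was over 0.1, so that the libraries were taken to share only a number. With those table numbers as a block, Gli3 at E10.5 changed by −0.99 (limma adjusted p = 0.00498). The block of title numbers also ended the calls at E10.5 of Shh, Gas1, Glis1, Glis3 and Zic5. Within same-numbered pairs the mean difference of the log2 ratio kept its direction in the 4 comparisons. The causes of these shifts were not tested. At E9.25 the low level of Gli1 and the number of libraries limit what can be seen.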
